A study of Mus musculus with 4 samples.

Results

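A set of 9 transcription factor genes that pattern the embryonic ear were followed across the sorted inner ear cells of newborn mice. They were *Eya1*, *Pax2*, *Dlx5*, *Dlx6*, *Otx1*, *Otx2*, *Hmx2*, *Hmx3* and *Emx2*, taken by symbol from the deposited table, and all 9 were listed among its 12814 genes. RNA-seq was performed on 4 populations of *Atoh1/nGFP* mice on the C57BL/6 background, a line in which a nuclear green fluorescent protein driven by *Atoh1* regulatory sequence marks hair cells (HCs), the mechanosensory cells of the ear. HCs of the cochlea and of the vestibular system carried the fluorescent protein together with the epithelial surface protein CD326, and epithelial non-sensory cells (ENSCs) of either organ carried CD326 alone. All groups shared genotype, background and age, cells of several mice were pooled for each sort, and there was no treatment. Each population had 1 column in the table, called a library here, and although the series text speaks of triplicates, whether a column pools several is not given in the sources used here. No value below has a replicate error, groups could not be tested against each other, and p-values are not given.

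The otic vesicle is divided early into regions that give rise to different parts of the inner ear, and homeobox and paired-box factors mark those regions. As background, *Hmx2*, *Hmx3*, *Dlx5* and *Dlx6* are needed in the dorsal and lateral vesicle, from which the semicircular canals and much of the vestibular system form. *Pax2* and the *Otx* genes act in the medial and ventral vesicle, from which the cochlea grows, and *Otx2* is known in the roof of the cochlear duct rather than in its sensory floor. *Emx2* sets the orientation of hair bundles in part of the vestibular epithelia and acts in cochlear sensory development, and *Eya1*, a transcriptional co-activator and phosphatase that works together with homeodomain partners, is needed from the earliest otic and sensory stages onwards.

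In the mm9 mouse genome 4 of the genes lie as neighbouring pairs. *Dlx6* (ENSMUSG00000029754, chromosome 6, 6813334 to 6818568, plus strand) and *Dlx5* (ENSMUSG00000029755, 6827805 to 6832085, minus strand) converge with 9236 bases between them, and the non-coding *Dlx6os1* runs across *Dlx6* on the other strand with no shared exonic base. *Hmx3* (ENSMUSG00000040148, chromosome 7, 138686381 to 138688439) and *Hmx2* (ENSMUSG00000050100, 138697576 to 138700096) lie 9136 bases apart on the plus strand. Both sit inside the span of a long *Fgfr2* gene model on the opposite strand, again with no exonic base in common. *Eya1* (ENSMUSG00000025932, chromosome 1, 14159035 to 14300281, minus strand), *Otx1* (ENSMUSG00000005917, chromosome 11, 21894767 to 21902900, minus strand), *Otx2* (ENSMUSG00000021848, chromosome 14, 49277354 to 49287319, minus strand) and *Pax2* (ENSMUSG00000004231, chromosome 19, 44830539 to 44912758, plus strand) have no overlapping gene in the deposited table, although non-coding gene models outside the table overlap *Pax2* and *Eya1*, and the nearest protein-coding gene, *Ehbp1*, lies 2930 bases from *Otx1*. *Emx2* (ENSMUSG00000043969, chromosome 19, 59533180 to 59539847, plus strand) starts 54 bases from the start of the non-coding *Emx2os*, which is transcribed away from it.

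Because paralogous homeobox genes are alike in sequence and only the first 50 nt of each read were aligned, the homeoboxes of the *Dlx* and *Otx* pairs are shown. Each is the 60-codon coding stretch read 5′ to 3′ from the GENCODE coding transcripts of the mm9 assembly, and the capitals mark the 6 codons at the core of the recognition helix, the part of the homeodomain that contacts the DNA.
Dlx5: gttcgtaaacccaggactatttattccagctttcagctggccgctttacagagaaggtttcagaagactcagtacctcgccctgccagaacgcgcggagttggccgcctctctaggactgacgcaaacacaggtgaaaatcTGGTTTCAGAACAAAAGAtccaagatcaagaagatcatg
Dlx6: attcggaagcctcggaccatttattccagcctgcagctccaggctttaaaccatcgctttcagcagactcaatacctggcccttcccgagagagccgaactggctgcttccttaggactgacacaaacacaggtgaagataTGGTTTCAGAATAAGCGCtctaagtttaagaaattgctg
Otx1: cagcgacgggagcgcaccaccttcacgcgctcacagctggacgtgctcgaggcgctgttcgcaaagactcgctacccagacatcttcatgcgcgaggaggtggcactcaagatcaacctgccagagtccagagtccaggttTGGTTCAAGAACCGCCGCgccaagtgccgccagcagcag
Otx2: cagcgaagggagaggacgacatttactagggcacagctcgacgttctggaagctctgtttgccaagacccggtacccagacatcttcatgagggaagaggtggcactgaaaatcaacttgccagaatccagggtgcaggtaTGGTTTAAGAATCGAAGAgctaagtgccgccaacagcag

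The *Otx* pair had 144 of 180 bases identical (80.0%), with a longest identical run of 18 bases, and the *Dlx* pair 132 (73.3%), with a longest run of 14, so neither pair shared a stretch as long as an aligned read. Over whole exons, 6 of the 9 genes had no 50-base window elsewhere in the genome or in another coding transcript. *Dlx6* had 182 such windows of 2207 (8.25%), found again at many positions on 21 chromosomes, *Otx1* had 12 of 5226, likewise on 21 chromosomes, and *Eya1* had 2 of 3468. The *Dlx6* signal is therefore the least certain of the 9 by sequence.

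The deposited value is a read count per gene after quantile normalization over the 4 libraries, called signal here, with a floor of 20. Low signals were tied: up to 24.25 in cochlear HCs, 22.75 in cochlear ENSCs, 30.5 in vestibular HCs and 20 in vestibular ENSCs they carried no rank. A fold with its smaller signal in that range is written as a lower bound, computed from the top of the range, and no fold is given where both signals are inside it. *Eya1*, *Emx2* and *Pax2* were above the tied range in all 4 libraries. The number above it was 3 of 9 in cochlear HCs, 6 in cochlear ENSCs, 6 in vestibular HCs and 9 in vestibular ENSCs. Of all genes 83.3%, 85.1%, 79.0% and 89.0% were above it in the same order, and the range reached highest in vestibular HCs and no higher than the floor in vestibular ENSCs. In these bulk populations fewer expressing cells and less RNA per cell cannot be told apart.

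**Figure D1:**
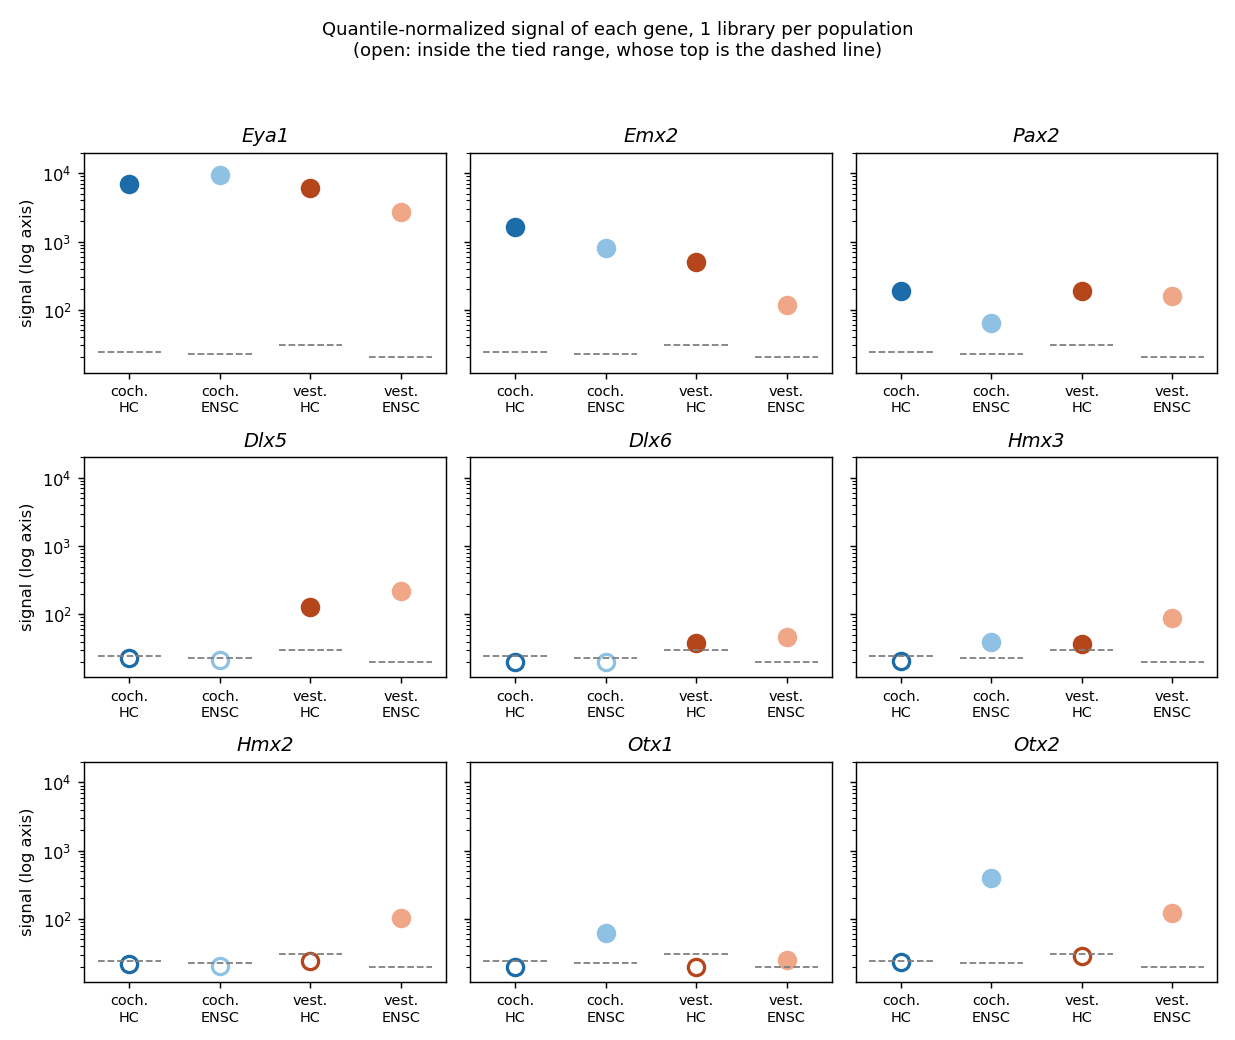
Signal of each of the 9 genes (vertical log axis, quantile-normalized signal) in the 4 libraries, with open circles for signals inside the tied range of that library and dashed lines at the top of the range. *Eya1* and *Emx2* stand well above the range everywhere, *Dlx5* and *Dlx6* leave it in the vestibular libraries, and *Otx1*, *Otx2* and *Hmx2* leave it in ENSC libraries.

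*Eya1* was the most abundant of the genes. Its signal was 7012 in cochlear HCs, 9427 in cochlear ENSCs, 6104.5 in vestibular HCs and 2668 in vestibular ENSCs, at or above 96.3% of all genes in each library. Divided by exonic length, it ranked first of the 9 in every library, with 1604 per kb in cochlear HCs and 610.25 per kb in vestibular ENSCs. The HC libraries of the organs were close (1.15-fold), whereas cochlear ENSCs were 3.53-fold above vestibular ENSCs (log2 ratio 1.82). In the cochlea HCs were 1.34-fold below ENSCs, and in the vestibular system 2.29-fold above them, so that the HC to ENSC ratio pointed in opposite directions in the organs. The library that stood lowest in both of these comparisons was that of vestibular ENSCs.

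*Emx2* was higher in the cochlea than in the vestibular system and higher in HCs than in ENSCs. Its signal was 1630.25 in cochlear HCs, 815.75 in cochlear ENSCs, 509 in vestibular HCs and 116 in vestibular ENSCs, so that both cochlear signals were above both vestibular ones. Per kb of exon it followed *Eya1* directly in 3 libraries and ranked 5 of 9 in vestibular ENSCs. Cochlear HCs exceeded vestibular HCs 3.20-fold (log2 ratio 1.68), which 3.6% of all genes surpassed, and cochlear ENSCs exceeded vestibular ENSCs 7.03-fold (log2 ratio 2.81, surpassed by 1.6% of genes). The HC signal was 2.0-fold the ENSC signal in the cochlea and 4.39-fold that of vestibular ENSCs (log2 ratio 2.13).

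The non-coding neighbour *Emx2os* shared the organ difference of *Emx2*. Its signals were 141.5 and 143.25 in cochlear HCs and ENSCs and 33.75 and 23.75 in vestibular HCs and ENSCs. Cochlear HCs stood 4.19-fold above vestibular HCs, and cochlear ENSCs 6.03-fold above vestibular ENSCs. Between HCs and ENSCs it differed 1.01-fold in the cochlea, without the HC excess of *Emx2*, and 1.42-fold in the vestibular system. Both vestibular signals were low, near the tops of the tied ranges at 30.5 in HCs and 20 in ENSCs. The vestibular ratio and both organ ratios of *Emx2os* rest on these low signals. Because these genes start back to back, the 300 bases upstream of *Emx2* are shown (mm9, chr19:59532880-59533179, plus strand), with the 54 bases between the annotated starts in capitals.
Emx2 upstream: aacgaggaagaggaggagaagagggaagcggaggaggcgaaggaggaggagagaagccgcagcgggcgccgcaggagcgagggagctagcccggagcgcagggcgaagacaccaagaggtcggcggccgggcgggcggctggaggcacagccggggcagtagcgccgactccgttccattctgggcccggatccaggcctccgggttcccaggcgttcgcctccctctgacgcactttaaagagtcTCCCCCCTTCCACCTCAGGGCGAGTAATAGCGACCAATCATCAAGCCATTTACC

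This stretch held 27 CpG dinucleotides and had a GC content of 66.0%. Whether reads were assigned by strand is not given in the sources used here, but the gene models of *Emx2* and *Emx2os* do not overlap.

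Genes of hair bundle orientation were read beside *Emx2*, since this factor is known to act on their pathway. Of the 7 on the list, 2 exceeded 3-fold in favour of HCs over ENSCs in the cochlea (*Insc*, *Ccdc88c*), and 3 were higher (*Insc*, *Gpsm2*, *Stk32a*) and 1 lower (*Gnai1*) in the vestibular system, against 8.39% of all genes higher in cochlear HCs, and 13.8% higher and 14.3% lower in vestibular HCs. After length and GC correction 4 were higher and 1 lower in vestibular HCs, against 14.6% and 10.2% of all genes. *Stk32a*, a kinase gene that *Emx2* is known to repress, had 21.5 and 20.75 in cochlear HCs and ENSCs, inside the tied ranges, and 174.25 and 47.75 in vestibular HCs and ENSCs. Vestibular HCs were at least 7.19-fold above cochlear HCs for *Stk32a*, opposite in direction to *Emx2*, whereas both genes were higher in vestibular HCs than in vestibular ENSCs (3.65-fold and 4.39-fold). The polarity adaptors *Insc* and *Gpsm2* had 418.75 and 451.75 in cochlear HCs and 212.25 and 562 in vestibular HCs. *Ccdc88c* was 4.35-fold higher in HCs in the cochlea, and of the G-protein subunits *Gnai1* was 3.54-fold lower in HCs in the vestibular system.

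*Pax2*, a paired-box factor and one of the earliest otic genes, was of middling abundance. Its signal was 186.5 in cochlear HCs, 64.75 in cochlear ENSCs, 188.75 in vestibular HCs and 160.75 in vestibular ENSCs. The HC libraries of the organs were 1.01-fold apart, and the low library was that of cochlear ENSCs. HCs were 2.88-fold above ENSCs in the cochlea (log2 ratio 1.53), just under 3-fold, and 1.17-fold above them in the vestibular system. Correction of the ratios for exonic length and GC content took the cochlear log2 ratio to 1.67, past 3-fold, and the vestibular one from 0.23 to 1.45. With a GC content of 59.6% over its exons, *Pax2* lay above the median of 48.8% of all genes. No other PAX gene of the 8 looked for was listed in the table.

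*Dlx5* and *Dlx6*, homeobox genes of the dorsal vesicle, were found in the vestibular libraries. *Dlx5* reached 223.5 in vestibular ENSCs and 128.25 in vestibular HCs, with 23 and 21.75 in cochlear HCs and ENSCs, both inside the tied ranges. It was at least 5.29-fold higher in vestibular than in cochlear HCs and at least 9.82-fold higher in vestibular than in cochlear ENSCs, and 1.7% and 1.1% of all genes leaned further towards the vestibular library. *Dlx6* was much lower, with 38.5 in vestibular HCs, 46.75 in vestibular ENSCs and 20 in both cochlear libraries, which placed it at least 1.59-fold and 2.05-fold higher in vestibular HCs and ENSCs. Per kb of exon the vestibular ENSC signal was 157 for *Dlx5* and 19.7 for *Dlx6*. The pair thus leaned to the same organ in both cell populations, at unequal levels.

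Within the vestibular system *Dlx5* was 1.74-fold and *Dlx6* 1.21-fold lower in HCs than in ENSCs (log2 ratios -0.80 and -0.28). After length and GC correction these log2 ratios were 0.05 and -0.02, so that no direction can be given between the 2 populations for either gene. The antisense transcript *Dlx6os1* reached 88.75 in vestibular ENSCs and 41.25 in vestibular HCs, with 21 and 20.25 in cochlear HCs and ENSCs. It was at least 3.90-fold higher in vestibular than in cochlear ENSCs, the same side as both neighbours.

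*Hmx2* and *Hmx3*, homeobox genes of vestibular development, had their highest signals in vestibular ENSCs. *Hmx2* had 103.75 there, against 24 in vestibular HCs, 20.75 in cochlear ENSCs and 21.5 in cochlear HCs, all 3 inside the tied ranges. Vestibular ENSCs were at least 4.56-fold above cochlear ENSCs and at least 3.40-fold above vestibular HCs. *Hmx3* had 88.75 in vestibular ENSCs, 36.25 in vestibular HCs, 38.75 in cochlear ENSCs and 21 in cochlear HCs, and was 2.29-fold higher in vestibular than in cochlear ENSCs and 2.45-fold higher in vestibular ENSCs than in vestibular HCs. Per kb of exon the pair stood together in vestibular ENSCs, at 62.2 for *Hmx2* and 60.9 for *Hmx3*.

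The *Hmx* ratios moved with correction for exonic length and GC content, which were corrected together. *Hmx3* had the highest exonic GC content of the 9 genes (66.6%), *Hmx2* had 58.4%, and ratios against vestibular ENSCs were lower at higher GC content (Spearman's rho -0.395 over 10358 genes for vestibular HCs and -0.453 over 10475 genes for cochlear ENSCs, a description across the genes with a signal over 20 in both libraries). After correction the vestibular HC to ENSC log2 ratio of *Hmx3* turned from -1.29 to 0.48 and that of *Hmx2* moved from -2.11 to -0.94, under 3-fold. The cochlear to vestibular ENSC log2 ratios went from -1.20 to -0.13 for *Hmx3* and from -2.32 to -1.46 for *Hmx2*. The neighbouring *Fgfr2* and *Bub3* were also highest in vestibular ENSCs, at 3133.5 and 2253.25 against 64.5 and 176.75 in vestibular HCs, and their part in the *Hmx* signals was not tested.

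*Otx2*, a homeobox gene of the cochlear roof, was found in ENSCs. Its signal was 395 in cochlear ENSCs and 120.25 in vestibular ENSCs, and 23.75 and 29 in cochlear and vestibular HCs, both inside the tied ranges. It was at least 16.3-fold lower in HCs than in ENSCs in the cochlea, where 0.7% of all genes had a lower ratio, and at least 3.94-fold lower in the vestibular system. Cochlear ENSCs were 3.28-fold above vestibular ENSCs (log2 ratio 1.72, and 1.58, just under 3-fold, after length and GC correction). The highest *Otx2* signal was thus in cochlear ENSCs.

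*Otx1* was at or near the floor in 3 libraries. It had 61.5 in cochlear ENSCs, 25 in vestibular ENSCs and 20 in both HC libraries. As deposited the cochlear HC to ENSC ratio passed 3-fold, but the bound was 2.54-fold lower in HCs. In the vestibular system the ENSC signal lay below the top of the tied range of vestibular HCs, so no direction can be given. Cochlear ENSCs were 2.46-fold above vestibular ENSCs, the same side as *Otx2* (log2 ratio 1.30, and 1.97 after length and GC correction).

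Counted over the 9 genes, 12 of 36 ratios passed 3-fold, in 6 genes. Between cochlear and vestibular ENSCs 5 of the 9 were at least 3-fold apart, 3 higher in the cochlea (*Emx2*, *Eya1*, *Otx2*) and 2 lower (*Dlx5*, *Hmx2*), where 15.7% of all genes were called (7.8% higher, 7.94% lower). Between cochlear and vestibular HCs 2 were called, *Emx2* higher and *Dlx5* lower in the cochlea, against 9.3% of all genes (4.21% higher, 5.09% lower). Between HCs and ENSCs 2 were called in the cochlea, *Otx1* and *Otx2*, both lower in HCs, against 17.6% of all genes (9.2% lower). In the vestibular system 3 were called, *Emx2* higher and *Otx2* and *Hmx2* lower in HCs, against 28.1% of all genes (13.8% higher, 14.3% lower). The shares of members called between HCs and ENSCs were near these backgrounds in both organs. At a threshold of 2-fold the counts were 3 for cochlear HCs against ENSCs (33.9% of all genes), 5 for vestibular HCs against ENSCs (48.1%), 2 between the HC libraries (21.0%) and 9 between the ENSC libraries (34.5%). At 5-fold they were 1 (8.55%), 0 (14.2%), 1 (3.43%) and 3 (6.27%) in the same order, the last of which includes *Hmx2*, whose bound of 4.56-fold is under 5-fold. After length and GC correction 1 gene was higher (*Pax2*) and 1 lower (*Otx2*) in cochlear HCs than ENSCs, 1 higher (*Emx2*) and 1 lower (*Otx2*) in vestibular HCs than ENSCs, and 3 higher (*Emx2*, *Eya1*, *Otx1*) and 1 lower (*Dlx5*) in cochlear than in vestibular ENSCs, while *Emx2* and *Dlx5* were still called between the HC libraries. The corrected shares of all genes, higher and lower, were 8.99% and 8.4% for cochlear HCs against ENSCs, 14.6% and 10.2% for vestibular HCs against ENSCs, 7.6% and 4.91% between the ENSC libraries, and 4.6% and 4.52% between the HC libraries.

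The median log2 ratio over the 9 genes was -1.20 between cochlear and vestibular ENSCs, -0.16 between the HC libraries, 0.00 for cochlear HCs against ENSCs and -0.32 for vestibular HCs against ENSCs. Over all genes it was 0.00 in each of these comparisons. After length and GC correction the members' median was -0.13 between the ENSC libraries and 0.48 for vestibular HCs against ENSCs, where all genes had 0.07 and 0.10. Several of the members' ratios rest on tied signals: 3 genes were inside the tied ranges in both libraries for cochlear HCs against ENSCs and 3 for cochlear against vestibular HCs.

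**Figure D2:**
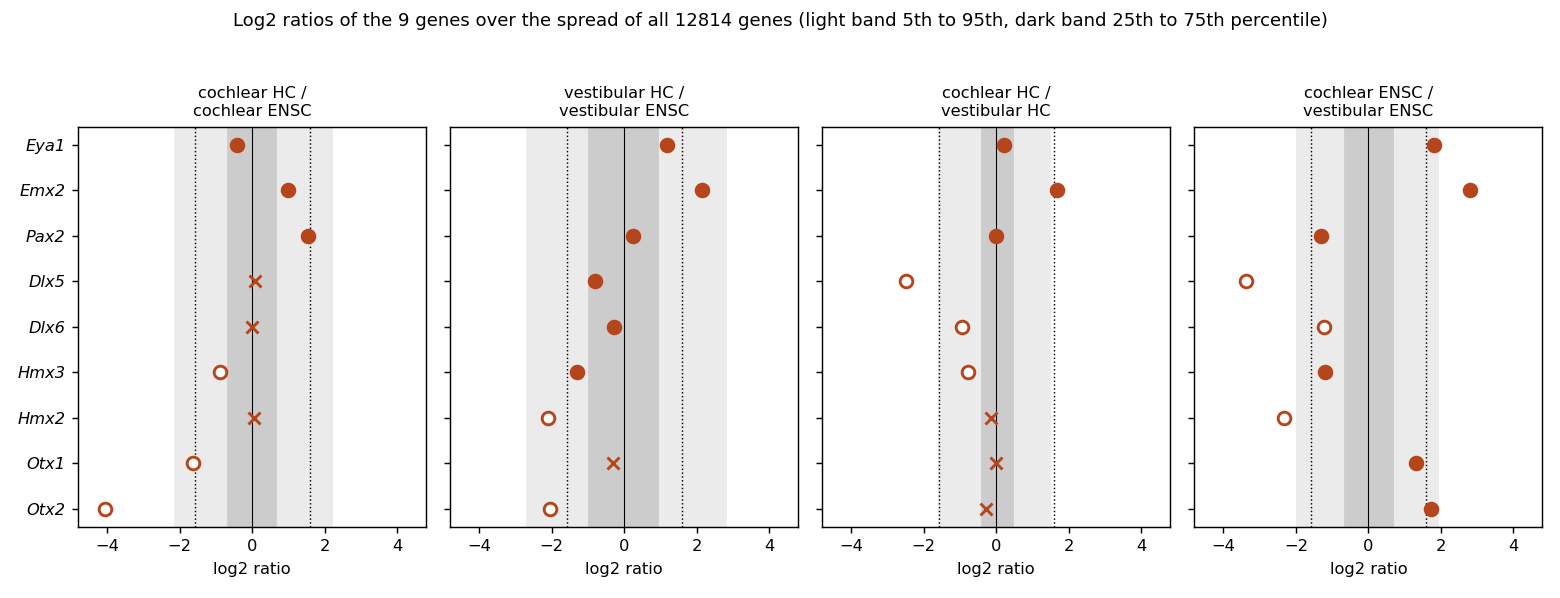
Log2 ratio (horizontal axis) of each gene in the 4 comparisons over the spread of all 12814 genes, with grey bands for the 5th to 95th and 25th to 75th percentiles and dotted lines at 3-fold. Filled circles are ratios of signals above the tied ranges, open circles have the smaller signal inside a tied range, and crosses have no direction. *Otx2* lies furthest left in the cochlear HC to ENSC comparison and *Dlx5* in both organ comparisons.

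Placed on the 2 organ ratios together, the genes fell on either side. *Emx2* was past 3-fold towards the cochlea in HCs and in ENSCs, and *Dlx5* was past it towards the vestibular system in both. These ratios come from separate pairs of libraries. *Dlx6* and *Hmx3* lay on the vestibular side in both populations without reaching 3-fold, and *Eya1* on the cochlear side in both, past 3-fold in ENSCs. For *Hmx2*, *Otx1* and *Otx2* the HC libraries gave no organ ratio, since both were inside the tied ranges.

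The difference between the organs in the HC to ENSC log2 ratio (vestibular minus cochlear) was 2.0 for *Otx2*, 1.62 for *Eya1*, 1.30 for *Otx1*, 1.13 for *Emx2* and -1.29 for *Pax2*. Differences of 3-fold or more were reached by *Eya1*, *Otx2* and *Hmx2*, 3 of 9, where 21.4% of all genes did so. The *Hmx2* value of -2.16 rests on 3 tied signals, and those of *Otx2* and *Otx1* on 2 each, so that none of these is a measured difference. With tied signals at the top of their range the value was 2.05 for *Otx2* and 1.63 for *Otx1*, and after correction 1.89 and 2.08. For *Eya1*, whose 4 signals were all above the tied ranges, the corrected difference was 1.42, under 3-fold. Correction took *Pax2* from -1.29 to -0.22 and *Hmx2* to -1.25, also under 3-fold.

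**Figure D3:**
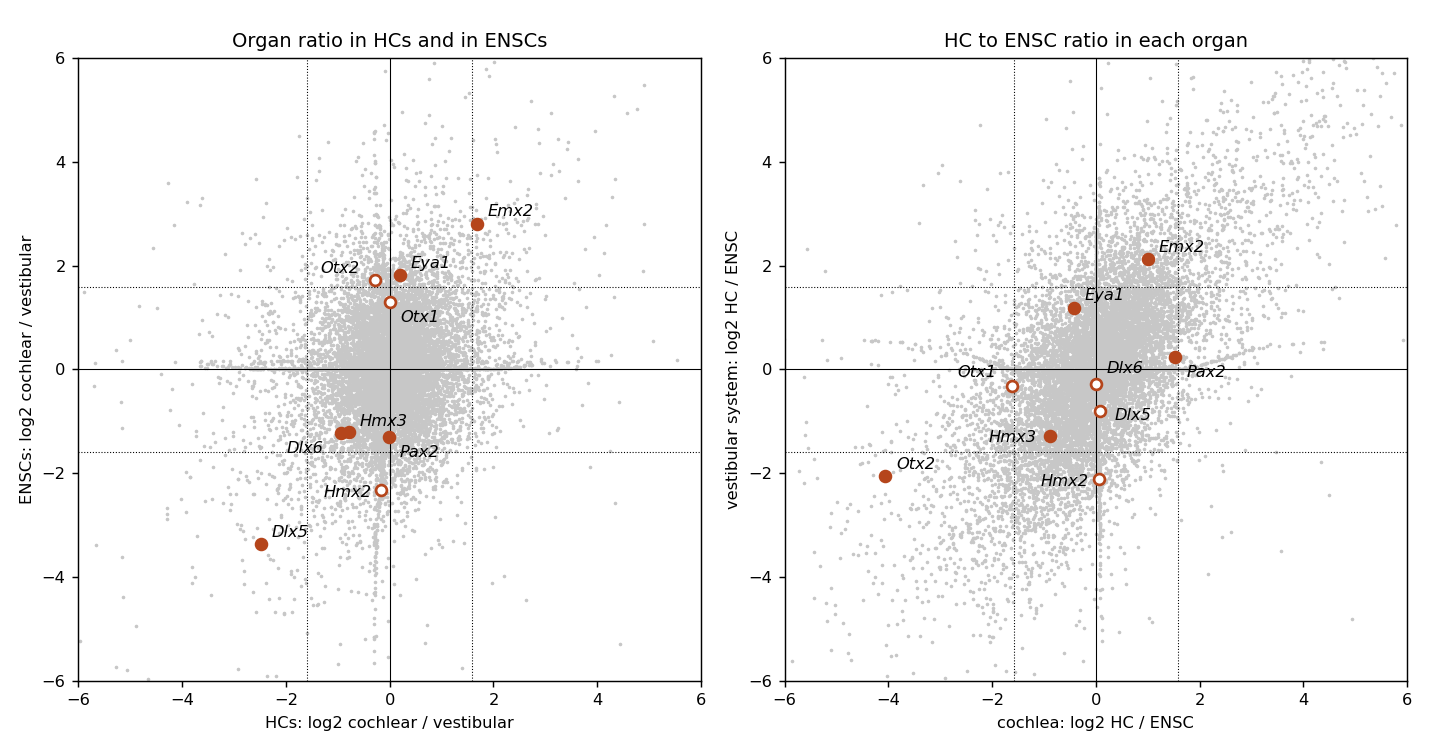
Left, log2 cochlear to vestibular ratio in HCs (horizontal) against the same ratio in ENSCs (vertical); right, log2 HC to ENSC ratio in the cochlea (horizontal) against the vestibular system (vertical). Grey points are all genes within the axes, dotted lines mark 3-fold, and open circles are genes with a ratio that has no direction. *Emx2* and *Dlx5* lie in opposite corners on the left, and *Eya1* is the gene with filled symbol in the upper left quadrant on the right.

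The partners of *Eya1* in its network with *Dach1*, *Six4* and their relatives were then examined, of which 8 of 10 were listed. *Eya4*, a deafness gene, had 3761.75 in cochlear HCs, 2279.75 in cochlear ENSCs, 3501.25 in vestibular HCs and 787.25 in vestibular ENSCs. *Dach1* and *Six4* likewise had their lowest signal in vestibular ENSCs, at 2117.5 and 1603.75. *Eya4* was 4.45-fold higher in vestibular HCs than in vestibular ENSCs, where *Eya1* was 2.29-fold higher. In the cochlea *Eya4* was 1.65-fold higher in HCs than in ENSCs and *Eya1* was lower.

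*Eya2* was the EYA gene with the steepest HC signal, at 118.5 in cochlear and 139 in vestibular HCs, where ENSCs had 20.5 and 20. The HC excess was at least 5.21-fold and 6.95-fold. *Eya3* differed little, with signals from 95 to 149. *Six2* was 5.12-fold higher in cochlear than in vestibular ENSCs, and *Dach2* went the other way, with 1250.75 in vestibular ENSCs and 565.5 in cochlear ENSCs. *Six5* was low, with 87 and 115.75 in cochlear and vestibular ENSCs and 25.75 and 24.75 in the HCs. In all, 1 gene of the network was at least 3-fold higher (*Eya2*) and 1 lower (*Six5*) in HCs in the cochlea, 2 were higher (*Eya2*, *Eya4*) and 1 lower (*Six5*) in the vestibular system, none was 3-fold apart between the HC libraries and 1 was higher (*Six2*) in cochlear than in vestibular ENSCs. With 8 genes these counts lie near the shares of all genes, which were 8.39% higher and 9.2% lower for cochlear HCs, 13.8% and 14.3% for vestibular HCs, and 7.8% higher for cochlear against vestibular ENSCs. With length and GC correction the vestibular HC to ENSC comparison had 3 higher, *Six2* being added, and none lower. The cochlear one had 1 higher and none lower, and the ENSC libraries had 1 higher (*Six2*) and 1 lower (*Dach2*). The corrected shares of all genes, higher and lower, were 14.6% and 10.2% for vestibular HCs against ENSCs. They were 8.99% and 8.4% in the cochlea, and 7.6% and 4.91% between the ENSC libraries. The median log2 ratio of the 8 genes was 1.0 for vestibular HCs against ENSCs, where all genes had 0.00, and 0.39 in the cochlea. After correction the vestibular median was 0.60, where all genes had 0.10.

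Of 9 relatives of the *Dlx*, *Emx* and *Hmx* genes 5 were listed, and those past 3-fold between the organs were all higher on the vestibular side: 2 in HCs (*Dlx1*, *Dlx2*) and 3 in ENSCs (*Dlx1*, *Dlx3*, *Msx2*), or 2 in ENSCs after correction. Of all genes 5.09% were that much higher in vestibular HCs and 7.94% in vestibular ENSCs, or 4.52% and 4.91% after correction. *Dlx1* reached 351.75 in vestibular HCs, with 86.25 in vestibular ENSCs and 23 and 22 in cochlear HCs and ENSCs, at least 14.5-fold higher in vestibular than in cochlear HCs. *Dlx2*, its neighbour in the genome, had 221.75 in vestibular HCs, 82.5 in vestibular ENSCs, 75 in cochlear ENSCs and 22.25 in cochlear HCs. *Dlx3* (273.25) and *Msx2* (193.25) were highest in vestibular ENSCs and at least 8.96-fold and 6.34-fold lower in vestibular HCs. *Dlx4* reached 30.5 in vestibular ENSCs and was at 20 elsewhere. *Dlx1* was thus 4.08-fold higher in vestibular HCs than ENSCs, whereas *Dlx3* was lower and *Dlx5* had no direction after correction. *Emx1*, *Hmx1*, *Crx* and *Msx1* were not listed in the table.

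**Figure D4:**
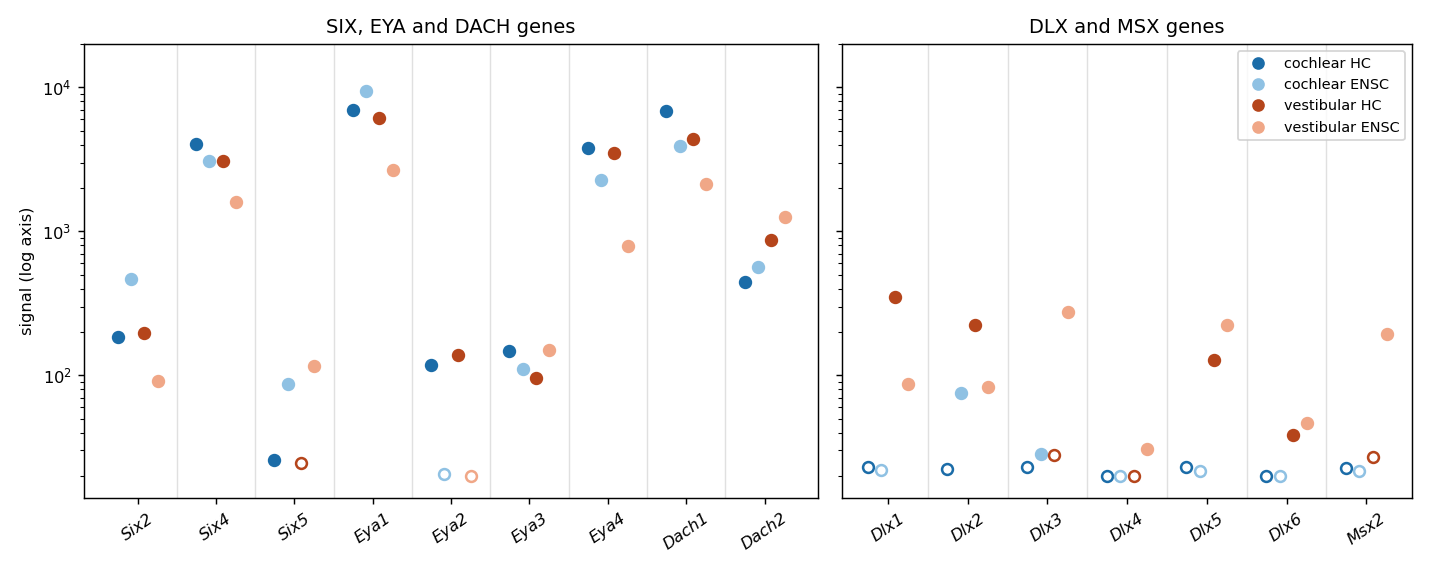
Signal (log axis) of *Eya1* with its network partners (left) and of the DLX and MSX genes (right) in the 4 libraries, with *Dlx5* and *Dlx6* beside their relatives and open circles for signals inside the tied range. Vestibular ENSCs are the lowest library for *Six4*, *Eya1*, *Eya4* and *Dach1*, and the cochlear signals of most *Dlx* genes are open.

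A list of 47 further otic transcription factors also held *Spry1* and *Spry2*, which are not transcription factors and passed 3-fold in no comparison. Of the 47 genes 30 were listed, both of these included. Between cochlear and vestibular ENSCs 9 of them were at least 3-fold higher and 4 lower (*Tbx3*, *Meis1*, *Meis2*, *Nr4a3*) in the cochlea, and between the HC libraries 6 were higher and 4 lower (*Tbx2*, *Tbx3*, *Meis1*, *Meis2*). Of all genes 7.8% were higher and 7.94% lower between the ENSC libraries, and 4.21% and 5.09% between the HC libraries. *Irx3*, *Nr2f1*, *Nr2f2*, *Gata3* and *Gli3* passed 3-fold on the *Emx2* side in both populations, and *Meis1*, *Meis2* and *Tbx3* on the *Dlx5* side. *Gata3*, a zinc-finger factor of the cochlear sensory region, was 70.5-fold higher in cochlear than in vestibular ENSCs, and *Meis2* 12.3-fold lower. In HCs against ENSCs 11 of the 30 listed genes were at least 3-fold lower and none higher in the cochlea. In the vestibular system 9 were lower and 3 higher (*Irx5*, *Sall1*, *Sall3*), or 8 lower and 5 higher after correction. Of all genes 9.2% were lower and 8.39% higher in cochlear HCs, and 14.3% were lower and 13.8% higher in vestibular HCs. After correction 10.2% of all genes were lower and 14.6% higher in vestibular HCs.

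To place the patterns, the protein-coding genes closest to the 6 of the 9 that reached a signal of 100 in any library were found by the distance between log2 signals centred on the gene's own mean over the 4 libraries, among 6727 candidates that reached a signal of 200 in any library. *Eya1* was closest to *Nt5c2* (distance 0.071), *Zfp2* and *Ssb*, against a median distance of 1.8. *Emx2* was closest to *Ccrl1* (0.227), *3110003A17Rik* and *Zbtb46*, with a median of 2.95, and *Pax2* to *Adipor1* (0.159), *Tmem63b* and *Lrba*. *Otx2* had *Wisp1* at 0.020, with 23.75, 397.75, 29 and 122.25 in cochlear HCs, cochlear ENSCs, vestibular HCs and vestibular ENSCs, followed by *Met* and *Oat*. *Dlx5* was closest to *Lama4* (0.150), and *Hmx2* to *Rpl6* (0.218). With 4 libraries many genes lie near any pattern, and signals inside tied ranges count in these distances. With a floor of 100 *Eya1* had 3 of its 3 nearest genes again, *Otx2* and *Emx2* had 1 of 3 (*Wisp1* and *Ccrl1*), and *Pax2*, *Dlx5* and *Hmx2* had 0 of 3.

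Marker genes checked the populations. All 7 HC markers exceeded 3-fold in favour of HCs, whichever the organ. Among all genes 8.39% were that much higher in cochlear HCs and 13.8% in vestibular HCs. *Atoh1* is among the 7 markers. Its regulatory sequence drives the protein used for sorting, so for this gene the check is not independent of the sort. The summed signal of the 7 markers was 7266.5 in cochlear HCs and 234.75 in cochlear ENSCs. It was 10427.5 in vestibular HCs and 140.25 in vestibular ENSCs. The ENSC libraries also held signal of markers listed for duct roof and endolymphatic epithelium, mesenchyme, cartilage, and brain and choroid plexus. Of the 9 genes, 6 stood above the tied range in cochlear ENSCs and all 9 in vestibular ENSCs. For 6 of 6 markers of the duct roof and endolymphatic epithelium the summed signal was 6110.75 in cochlear ENSCs and 41161.25 in vestibular ENSCs, of which *Oc90* made up 5341.75 and 37323.75, while cochlear HCs had 596.25 and vestibular HCs 2305.75, of which *Meis2* made up 1549.5. For 9 of 11 mesenchymal markers it was 20550 in cochlear ENSCs and 4749.5 in vestibular ENSCs, with 1571.75 and 472.5 in the matching HCs and with *Pou3f4* and *Twist1* not listed. *Lum* alone made up 12731.25 of the cochlear ENSC sum, *Col1a1*, *Col3a1* and *Tbx18* were higher in vestibular than in cochlear ENSCs, and *Pdgfra* was higher in HCs than in ENSCs of both organs. For 5 of 7 cartilage markers it was 23600.75 and 50000.25 against 2296.5 and 2206, with *Acan* and *Comp* not listed. *Matn1* was the cartilage marker higher in cochlear than in vestibular ENSCs (3298.5 and 47.75), and of the roof markers *Slc26a4* and *Vmo1* were likewise higher there. Of 4 brain and choroid plexus markers *Ttr* and *Clic6* were listed and summed to 1468 in cochlear ENSCs, 538.75 in vestibular ENSCs, and 83.25 and 58.75 in the matching HCs. The markers ran in opposite directions, with 204.75 and 490 for *Ttr* and 1263.25 and 48.75 for *Clic6* in cochlear and vestibular ENSCs. The part of these cells in the signals of the 9 genes was not tested.

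Markers of 5 further cell types were read in the same way. Neuronal markers (3 of 6 listed) summed to 4647.5 in cochlear HCs, 219 in cochlear ENSCs, 5178 in vestibular HCs and 60.5 in vestibular ENSCs. *Neurod1*, *Th* and *Tubb3* were not listed. In cochlear HCs *Nefl* made up 2380.75 and *Nefm* 1995.25 of the sum, and in vestibular HCs 2470 and 2121.25. Whether these signals came from neurons or from the HCs themselves was not tested. Glial markers (5 of 6) summed to 2921 and 2810.25 in cochlear HCs and ENSCs and 783.75 and 2595.75 in vestibular HCs and ENSCs. Of the endothelial markers *Kdr* was listed, at 1461.75 in vestibular ENSCs and at most 29.75 elsewhere, of the blood and macrophage markers *Cd68*, at most 24.75, and of the melanocyte markers none. All 5 epithelial markers were listed and summed to 9905 and 21993.75 in cochlear and vestibular ENSCs, and to 7431 and 1758 in the HCs. *Cdh1* made up 6003 of the cochlear HC sum, and the other 4 markers were each at least 3-fold lower in cochlear HCs than in cochlear ENSCs.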

How the data were processed

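RNA of 4 sorted populations was amplified and sequenced. By the study's methods the authors aligned only the leading 50 nt of a read (TopHat, mm9) and used HTSeq for counts of ENSEMBL genes. They kept genes with at least 20 reads, quantile-normalized the libraries and then set a floor of 20. The order in the deposited values appears to differ. Their tied ranges reach above 20, up to 30.5 in vestibular HCs, which a floor set last would not give. Tool versions, annotation release and strand setting are not given in the sources used here. The deposited values are therefore a normalized signal, not read counts: each of the 4 columns sums to 7830343 with a median of 120, the original depth is unknown, and no interval can be given. A statement that the series was recorded in triplicates could not be matched to the table, which has 1 column per population.

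Ratios of deposited signals were taken without a pseudocount and called at 3-fold. The tied range of a library, in which normalization left low counts without rank, was found from the values. The procedure was also run on simulated data. Ties there were built in the order that the procedure looks for, so the run could not test whether the deposited values are tied that way. Exonic length and GC content came from the GENCODE M1 annotation of NCBIM37 (mm9), which matched 12799 of 12814 identifiers. Ratios were corrected for both by lowess (fraction 0.3). Exonic windows of 50 bases were searched for in the whole genome and in coding transcripts. Genes named are the 9, their families, list members with a signal of at least 100 and a 3-fold ratio, non-coding neighbours within 10 kb, markers, and the 3 nearest protein-coding genes by pattern (signal of at least 200). *Fgfr2*, *Bub3* and *Ehbp1* were named after their values were seen. Some items are not reported here, and list counts leave them out. The members and lists were chosen with earlier results of these data known. Alternatives were floors of 50 and 100, pseudocounts of 20 and 100, thresholds of 2-fold and 5-fold, median centring, tied signals at the top of their range, and the correction. Python 3.11.15, numpy 2.4.6, pandas 2.3.3, scipy 1.17.1, statsmodels 0.14.6, Biopython 1.88 and matplotlib 3.10.9 were used.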

Additional observations from a re-analysis of the deposited data

Results flagged for a closer look

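The HC to ENSC ratio of *Eya1* pointed in opposite directions in the cochlea and the vestibular system, with a difference of 1.62 on the log2 scale (vestibular minus cochlear), and 1.42, under 3-fold, after length and GC correction. With 1 library per population the difference was not tested.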

How the results depend on the processing

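No paired analysis was possible because each population has 1 library and no result comes from a test, and for the same reason no replicate could be left out. Among the 9 genes no ratio above 3-fold changed direction under any alternative. Ratios of other genes were not followed through all alternatives. Of the 12 ratios past 3-fold, 3 stayed past it under all 7 alternatives to the ratio: *Otx2* between cochlear HCs and ENSCs (log2 -4.07 to -1.98) and *Eya1* (1.62 to 1.82) and *Emx2* (2.08 to 3.02) between the ENSC libraries. *Emx2* between vestibular HCs and ENSCs and between the HC libraries fell under it with a pseudocount of 100 alone (1.5 and 1.51). For cochlear HCs against ENSCs the count of 2 genes became 1 with a floor of 50 or 100, a pseudocount of 20 or 100, tied signals at the top of their range, or a threshold of 5-fold, and 3 with a threshold of 2-fold. For vestibular HCs against ENSCs the count of 3 became 2 with the length and GC correction, 1 with a floor of 50 or 100 or a pseudocount of 20, 0 with a pseudocount of 100 or a threshold of 5-fold, and 5 with a threshold of 2-fold. Between the HC libraries the count of 2 became 1 with a floor of 50 or 100 or a threshold of 5-fold, and 0 with a pseudocount of 100. Between the ENSC libraries the count of 5 became 4 with a floor of 50, a pseudocount of 20 or the length and GC correction, 3 with a floor of 100 or a threshold of 5-fold, 2 with a pseudocount of 100 and 9 with a threshold of 2-fold. The 3 genes whose HC to ENSC ratios differed 3-fold between the organs became 1 with a pseudocount of 100, 2 with a floor of 50 or 100, a pseudocount of 20 or the length and GC correction, and 4 with tied signals at the top; under the correction *Eya1* (1.42) and *Hmx2* (-1.25) dropped out and *Otx1* (2.08) entered. Higher floors and pseudocounts shrink ratios of low signals by construction; other causes were not tested.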

Other observations

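Other otic transcription factors also differed between the populations. *Irx5*, an Iroquois homeobox gene, had 377.75 in cochlear HCs, 1501.75 in cochlear ENSCs, 386 in vestibular HCs and 64.25 in vestibular ENSCs. It was 3.98-fold lower in HCs than in ENSCs in the cochlea and 6.01-fold higher in HCs in the vestibular system, the directions of the *Eya1* ratios, and the difference was not tested. *Lmx1a*, a LIM homeobox gene of non-sensory otic epithelium, and *Gata2*, a zinc-finger factor of the developing canals, were low in HCs of both organs. *Lmx1a* was 43.5-fold lower in HCs in the cochlea and at least 71.2-fold lower in the vestibular system, and *Gata2* was 14.5-fold and 45.5-fold lower. *Nr2f2*, an orphan nuclear receptor gene, was 44.5-fold higher in cochlear than in vestibular ENSCs.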
